A study of Mus musculus with 24 samples.

Results

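The T cell receptor α (TCRα) chains that use a V gene of the TRAV3 family were followed through 24 tumors of 12 mice. Members were the sequences of the 24 TCRα tables whose V gene was named TRAV3-, TRAV3D- or TRAV3N-, that had no stop or out-of-frame mark and that had at least 2 counts. This gave 4947 of the 55689 retained sequences. Sequences that coded for one CDR3 and had the same V and J segments were joined, which gave 3113 distinct clonotypes, of 35452 in all. TRAV3-3 had 3390 sequences, TRAV3-1 had 1528 and TRAV3-4 had 29. TRAV3D-3 was named in 1 row, which was not retained, and no row named a TRAV3N gene. Of the 34807 TRAV3 rows in the tables, 15150 (43.5%) had the stop or out-of-frame mark, against 38.7% of all TCRα rows.

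All mice were young female BALB/c mice given CT26.CL25 cells in ECM gel under the skin of each flank. CT26.CL25 is a mouse colon carcinoma line that carries bacterial β-galactosidase. In the time-matched group (mice 6, 12 and 14) both tumors were taken on day 13. In the time-separated group (mice 4, 17 and 19), untreated, 1 tumor was removed by surgery under carprofen and buprenorphine and the other was harvested 11 days later. The other two groups were time-separated in the same way and received decitabine (DAC), an inhibitor of DNA methyltransferases, into the peritoneum on 5 consecutive days from day 3 after surgery, at 0.5 mg/kg (mice 3, 11 and 20) or 2 mg/kg (mice 7, 10 and 16). The time-matched and time-separated mice thus also differed in the age of their tumors when taken and in surgery, which cannot be told apart here. The tumors carry the numbers 1 and 2 in the labels, with no side or time, so that neither number stands for the early or the late tumor here. RNA came from whole tumors, and a larger share of counts can come from more T cells or from more receptor RNA per cell, which cannot be told apart in bulk RNA. The libraries read receptor chains alone, so that no marker of another cell type was measured. The mice are the replicates, and each tumor gave 1 library.

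The α chain is assembled in the thymus when a TRAV gene is joined to 1 of the many TRAJ segments, with bases trimmed and added at the joint. The joint encodes the third complementarity-determining region (CDR3), the loop that touches the peptide most closely, while the V gene encodes the other two loops. Joining starts between V and J segments that lie near each other and can be repeated with V genes farther 5′ and J segments farther 3′ (segments with lower numbers) until a chain is selected. A CDR3 that needs few added bases can arise often, and such chains tend to be found in many individuals.

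The segments of the family were close to identical in the part that was sequenced. The 60 bases before the CDR3 are given first because the segment call rests on them. They are the most frequent bases of the sequences long enough to cover them (50 of TRAV3-3, 11 of TRAV3-1 and 24 of TRAV3-4), and capitals mark differences from TRAV3-3.
TRAV3-3: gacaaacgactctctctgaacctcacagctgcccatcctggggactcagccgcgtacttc
TRAV3-1: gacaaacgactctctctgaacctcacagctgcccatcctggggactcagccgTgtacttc
TRAV3-4: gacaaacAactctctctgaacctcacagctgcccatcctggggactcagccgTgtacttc

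With positions counted from 1 at the 5′ end of this window and TRAV3-3 as the reference, TRAV3-1 differed by C53T alone, and TRAV3-4 by G8A and C53T. Most deposited sequences were shorter than the window, with a median of 40 bases before the CDR3 in TRAV3-3 and 37 in TRAV3-1. The base of TRAV3-3 at position 53 was read in 3324 of 3390 TRAV3-3 sequences and in 0 TRAV3-1 sequences. The base of TRAV3-1 there was read in 1519 of 1528 TRAV3-1 sequences and in 0 TRAV3-3 sequences. In nearly all sequences the split between TRAV3-1 and TRAV3-3 therefore rested on this base. TRAV3-4 sequences had a median of 89 bases before the CDR3, and those short of position 8 could not be told from TRAV3-1 by these bases.

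The clonotypes below are the ones on which the results turn. They are written from the codon of the conserved cysteine to the last codon of the CDR3, and capitals mark bases between the most frequent V start and the most frequent J end of that V gene and TRAJ in these data. The set opens with the clonotype found in the most libraries and goes on with the chains of the same form that led a mouse. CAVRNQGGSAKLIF led no mouse and is shown as the other clonotype found in 10 mice, and the rest are the largest clonotypes of the remaining mice.
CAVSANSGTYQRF, TRAV3-3 with TRAJ13: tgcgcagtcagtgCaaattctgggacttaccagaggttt
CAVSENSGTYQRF, TRAV3-3 with TRAJ13: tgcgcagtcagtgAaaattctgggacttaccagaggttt
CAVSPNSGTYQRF, TRAV3-3 with TRAJ13: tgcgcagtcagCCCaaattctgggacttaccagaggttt
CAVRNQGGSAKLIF, TRAV3-1 with TRAJ57: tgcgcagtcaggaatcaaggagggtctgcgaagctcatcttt
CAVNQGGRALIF, TRAV3-3 with TRAJ15: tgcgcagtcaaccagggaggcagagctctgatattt
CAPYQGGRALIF, TRAV3-3 with TRAJ15: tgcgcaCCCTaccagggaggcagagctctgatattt
Largest of mouse 6, TRAV3-3 with TRAJ58: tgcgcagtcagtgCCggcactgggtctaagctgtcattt
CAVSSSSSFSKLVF, TRAV3-1 with TRAJ50: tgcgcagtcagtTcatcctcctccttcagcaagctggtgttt
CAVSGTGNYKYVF, TRAV3-3 with TRAJ40: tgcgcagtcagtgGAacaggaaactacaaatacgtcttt
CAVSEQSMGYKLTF, TRAV3-3 with TRAJ9: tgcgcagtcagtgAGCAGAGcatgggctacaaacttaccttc
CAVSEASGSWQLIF, TRAV3-3 with TRAJ22: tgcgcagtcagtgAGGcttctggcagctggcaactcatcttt

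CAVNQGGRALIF and this form of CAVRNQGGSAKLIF held no base that the V start or the J end did not give. In the other chains shown, between 1 and 7 bases lay between them.

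Retained depth ran from 26623 counts (mouse 7, tumor 2) to 846655 counts (mouse 12, tumor 2), with a median of 159256. The time-matched group had the highest median depth, 292692 counts, but its range of 176171 to 846655 overlapped that of every other group, which was 73240 to 183066 in the untreated time-separated mice, 55862 to 198499 at 0.5 mg/kg and 26623 to 236622 at 2 mg/kg. Shares of counts used all retained counts of a library. The TRAV3 share of clonotypes and the private share used libraries thinned to 26623 counts. The TRAV3 overlap index, the use of TRAJ segments and CDR3 length used all retained counts. Intervals are 95% exact binomial (Clopper-Pearson) intervals and cover counting error only.

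TRAV3 was a large family in these tumors, and its share differed widely between mice. It held 390268 of the retained counts (8.18%). By mean share over the mice it ranked second of 17 TRAV families, at 10.7%, after TRAV7 at 25.2% and next to TRAV9 at 10.4%. The lowest tumor share was 0.840% (interval 0.821% to 0.860%) in tumor 2 of mouse 12 and the highest 36.3% (36.1% to 36.5%) in tumor 2 of mouse 10. TRAV3 was the largest family in both tumors of mouse 10 and in tumor 2 of mouse 3, and ranked between 2 and 9 in the other tumors.

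In the time-matched mice TRAV3 held small shares. Tumors 1 and 2 of mouse 6 had 5.44% and 6.16% of their counts in TRAV3, those of mouse 12 had 1.06% and 0.840%, and those of mouse 14 had 3.60% and 3.89%. In the untreated time-separated mice the tumors of mouse 4 had 8.53% and 10.4%, those of mouse 17 had 10.6% and 15.8%, and those of mouse 19 had 13.9% and 9.39%. No time-matched tumor reached the lowest of these time-separated tumors. The mean per mouse was 3.50% ± 2.43 (SD, n = 3) against 11.4% ± 1.86 (n = 3), a difference of -7.95 percentage points (two-sided exact permutation test, p = 0.1, which is the smallest p that 3 mice against 3 allow). Of the 17 families, 2 (11.8%) lay lower in every time-matched mouse than in every untreated time-separated mouse. The other one was TRAV21, and none lay higher.

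**Figure D1:**
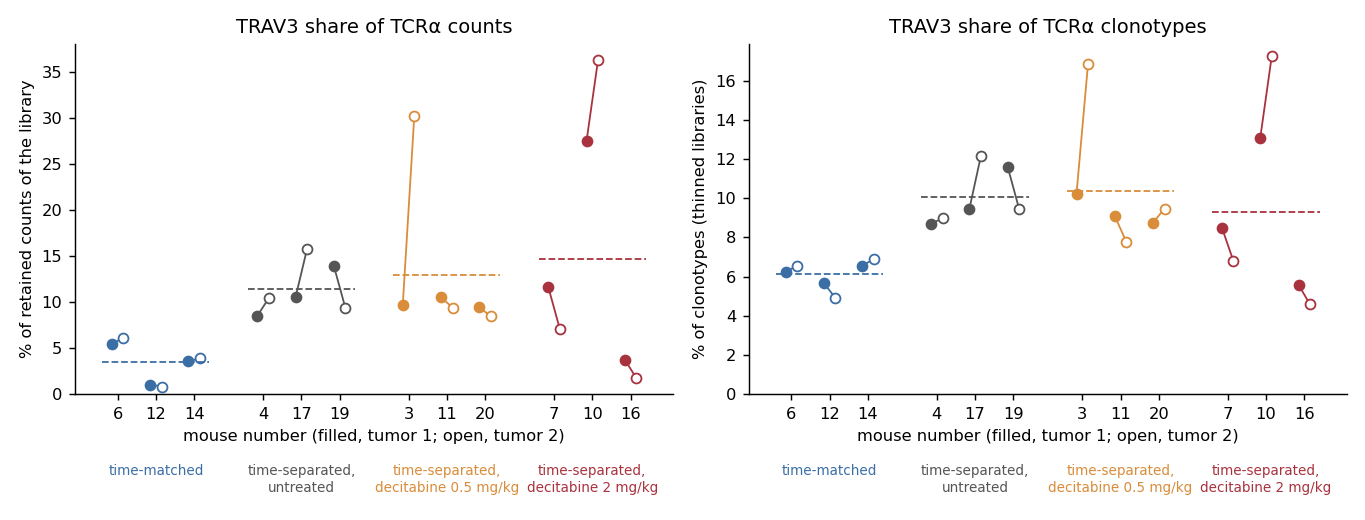
Share of TRAV3 in each tumor, on the left as a percent of all retained TCRα counts and on the right as a percent of the clonotypes of libraries thinned to 26623 counts. Filled points are tumor 1, open points tumor 2, lines join the tumors of a mouse and dashed lines are the means of 3 mice. The 3 time-matched mice lie below the 3 untreated time-separated mice on both scales, and mouse 10 and tumor 2 of mouse 3 stand highest.

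In the decitabine mice the spread was wider. In each of them 1 tumor was removed before the drug was given, so that the mean of a mouse joins a tumor taken before treatment with one taken after it. At 0.5 mg/kg tumors 1 and 2 of mouse 3 had 9.74% and 30.2% of their counts in TRAV3, those of mouse 11 had 10.6% and 9.41%, and those of mouse 20 had 9.45% and 8.47%. At 2 mg/kg mouse 7 had 11.7% and 7.14%, mouse 10 had 27.5% and 36.3%, and mouse 16 had 3.77% and 1.77%. The lowest and the highest mouse of the time-separated design thus both received 2 mg/kg. The mean was 13.0% ± 6.08 (SD, n = 3) at 0.5 mg/kg, 1.53 points above the untreated mice (exact permutation test, p = 0.9). It was 14.7% ± 15.3 (n = 3) at 2 mg/kg, 3.25 points above them (exact permutation test, p = 1). Between 0.5 mg/kg and untreated mice 3 of the 17 families (17.6%) did not overlap, and between 2 mg/kg and untreated mice 1 (5.88%), TRAV3 not being among them. The difference at 0.5 mg/kg was below the SD of both groups. That at 2 mg/kg was below the SD of the treated mice (15.3) but above that of the untreated mice (1.86). Both differences turned negative when the largest TRAV3 clonotype of each mouse was left out, to -2.81 points at 0.5 mg/kg (exact permutation test, p = 0.1, the smallest possible) and -1.10 at 2 mg/kg (exact permutation test, p = 1). Each also turned when 1 mouse was left out, to -1.97 at 0.5 mg/kg without mouse 3 (exact permutation test, p = 0.3) and to -5.36 at 2 mg/kg without mouse 10 (exact permutation test, p = 0.1, the smallest that 2 mice against 3 allow). Against all 9 time-separated mice (13.0% ± 8.39) the time-matched mice differed by -9.54 points (exact permutation test, p = 0.0818), and by -4.63 (exact permutation test, p = 0.105) without the largest TRAV3 clonotype of each mouse. At an adjusted p of 0.05, 0 of the 17 families (0%) were called in that comparison, and 0 at an unadjusted p of 0.05.

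By group mean, the TRAV3 share of clonotypes was also lowest in the time-matched mice. In thinned libraries TRAV3 made up 6.14% ± 0.749 of the clonotypes in the time-matched mice and 10.1% ± 1.06 in the untreated time-separated mice (SD, n = 3 each), a difference of -3.92 points (exact permutation test, p = 0.1, the smallest possible). It was 10.4% ± 2.77 at 0.5 mg/kg and 9.30% ± 5.23 at 2 mg/kg (n = 3 each). The lowest single mouse was mouse 16 (2 mg/kg), at 5.09%, and its tumor 2, at 4.59%, lay below every time-matched tumor. The tumors of the time-matched mice lay between 4.92% and 6.90%, below the 8.69% to 12.1% of the untreated time-separated tumors. Against all 9 time-separated mice (9.91% ± 3.05) the difference was -3.77 points (exact permutation test, p = 0.0591). Part of this number came from sequences 1 base away from a far more frequent one. When each such sequence was merged into the larger one of its library, the difference from the untreated mice was -1.67 points (exact permutation test, p = 0.1) and that from all 9 was -1.46 points (exact permutation test, p = 0.191).

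Within the family TRAV3-3 carried most counts and the wider range between mice. It held 307973 counts, 78.9% of the family, with 1989 distinct clonotypes. TRAV3-1 held 81972 counts (21.0%) with 1102 distinct clonotypes, and both were found in all 24 tumors. TRAV3-4 held 323 counts in 13 tumors of 9 mice and at most 55 counts in a sequence or clonotype of 1 tumor. The share of TRAV3-3 per mouse ran from 0.663% (mouse 12) to 30.1% (mouse 10), and that of TRAV3-1 from 0.284% (mouse 12) to 4.57% (mouse 19). TRAV3-3 stood at 2.03% ± 1.21 of the counts in the time-matched mice, 7.87% ± 2.16 in the untreated time-separated mice, 11.2% ± 6.27 at 0.5 mg/kg and 12.8% ± 15.2 at 2 mg/kg (SD, n = 3 each). TRAV3-1 stood at 1.47% ± 1.28, 3.55% ± 0.907, 1.80% ± 0.230 and 1.89% ± 1.08. TRAV3-1 made up between 5.99% (mouse 10) and 48.6% (mouse 6) of the TRAV3 counts of a mouse.

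A few clonotypes held a large part of these counts. The highest was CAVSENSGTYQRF in mouse 10 (2 mg/kg), with 16.0% of all TCRα counts in tumor 1 and 21.1% in tumor 2, the largest clonotype of either library. It made up 58.0% and 58.2% of the TRAV3 counts there. In mouse 3 (0.5 mg/kg) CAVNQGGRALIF held 4.01% (interval 3.86% to 4.16%) in tumor 1 and 25.3% (24.9% to 25.6%) in tumor 2, where it was the largest clonotype of the library and 83.7% of the TRAV3 counts. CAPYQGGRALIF, with the same J end, held 6.49% and 4.39% in mouse 7 (2 mg/kg). Of the clonotypes named here, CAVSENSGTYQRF and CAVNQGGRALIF were the only ones above 10% of a library.

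The untreated time-separated mice had smaller leading clonotypes that differed between the tumors. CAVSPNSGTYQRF held 0.667% and 3.23% of the counts in tumors 1 and 2 of mouse 4. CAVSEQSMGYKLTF held 1.55% and 6.00% in mouse 17. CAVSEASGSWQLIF held 1.37% and 5.37% in mouse 19. In all 3 mice it was tumor 2 that held more, and in none was the leading TRAV3 clonotype of tumor 1 the leading one of tumor 2.

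By the tumor in which they were higher, the largest clonotypes of the time-matched mice were smaller still. The TRAV3-3 chain with TRAJ58 that led mouse 6 held 1.45% and 1.40%. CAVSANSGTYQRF held 0.290% and 0.224% in mouse 12. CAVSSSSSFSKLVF held 0.778% and 0.654% in mouse 14, where another chain, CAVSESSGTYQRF, led tumor 2 with 0.813% and held 0.0280% in tumor 1. In the remaining treated mice, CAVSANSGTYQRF led mouse 11 with 5.08% and 7.69% and mouse 20 with 0.683% and 2.55% (both 0.5 mg/kg). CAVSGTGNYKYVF led mouse 16 (2 mg/kg) with 1.48% and 0.175%. The last was the only one of the 12 with a share more than 2-fold lower in tumor 2 than in tumor 1.

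The 5 largest TRAV3 clonotypes of either tumor, pooled per mouse, were then set side by side. In the time-matched mice all 19 were found in both tumors and 5 differed more than 2-fold in share. In the untreated time-separated mice 17 of 23 were found in both and 22 differed more than 2-fold. At 0.5 mg/kg 16 of 25 were found in both and 21 differed more than 2-fold, and at 2 mg/kg these numbers were 16 of 20 and 16. The counts are a description, since the clonotypes of a mouse are not replicates of a condition.

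The clonotypes with the largest ratio among these show how far single chains differed. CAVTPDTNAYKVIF (TRAV3-1 with TRAJ30) had 2916 counts, 1.47%, in tumor 1 of mouse 11 and 0 of 96375 retained counts in tumor 2, where 3 counts would be 0.00311%. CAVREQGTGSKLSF (TRAV3-1 with TRAJ58) had 947 counts, 1.09%, in tumor 1 of mouse 19 and 0 of 87179 in tumor 2, where 3 counts would be 0.00344%. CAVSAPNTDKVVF (TRAV3-1 with TRAJ34) was read in tumor 2 of mouse 4 alone, with 392 counts or 0.535%. A chain of TRAV3-3 with TRAJ5 held 1.48% in tumor 1 of mouse 10 and 0.0135% in tumor 2. In the time-matched mice the same rule gave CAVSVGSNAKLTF in mouse 6 (0.0922% and 0.493%), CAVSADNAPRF in mouse 12 (0.00892% and 0.0257%) and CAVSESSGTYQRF in mouse 14 (0.0280% and 0.813%). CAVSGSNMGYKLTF (mouse 3), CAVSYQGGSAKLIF (mouse 7) and a TRAV3-1 chain with TRAJ32 (mouse 16) were read in tumor 1 alone, with 358, 448 and 643 counts.

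**Figure D2:**
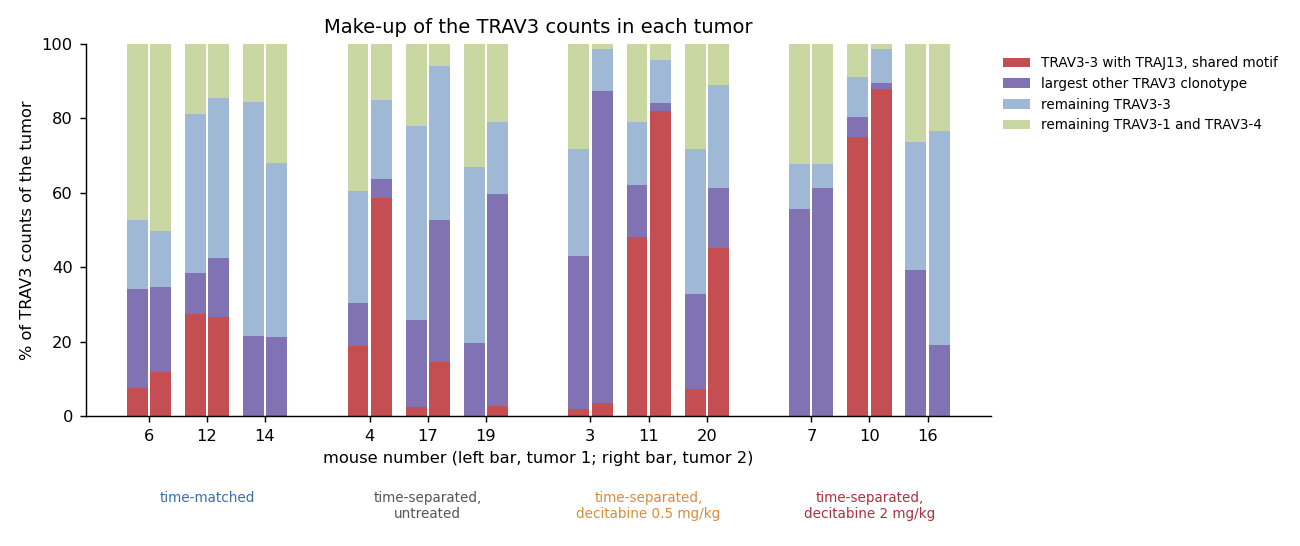
Make-up of the TRAV3 counts of each tumor, as a percent of all its TRAV3 counts. The red part holds the TRAV3-3 chains with TRAJ13 that differ in residue 5 alone, and the purple part is the largest other clonotype of that tumor. The red part reached 87.8% in tumor 2 of mouse 10 and was 0 in mice 7 and 16, and the purple part reached 83.7% in tumor 2 of mouse 3.

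The overlap of the TRAV3 chains between the tumors of a mouse was measured with the Morisita-Horn index, which is 1 for equal composition and 0 with no shared clonotype. It was 0.944, 0.964 and 0.670 in time-matched mice 6, 12 and 14 and 0.512, 0.524 and 0.334 in time-separated mice 4, 17 and 19. The groups did not overlap, with means of 0.859 ± 0.165 and 0.456 ± 0.106 (SD, n = 3 each) and a difference of 0.403 (exact permutation test, p = 0.1, the smallest possible). These values used all retained counts, and in thinned libraries the difference was 0.385 (exact permutation test, p = 0.1). Without the largest TRAV3 clonotype of each mouse the difference was 0.337 (exact permutation test, p = 0.2) and the groups overlapped. The index was 0.783, 0.851 and 0.280 in mice 3, 11 and 20 (0.5 mg/kg) and 0.987, 0.982 and 0.529 in mice 7, 10 and 16 (2 mg/kg). Against all 9 time-separated mice the difference was 0.217 (exact permutation test, p = 0.232). Mice 7 and 10, with the highest values of all, were also those in which 1 clonotype held more than 50% of the TRAV3 counts in both tumors. In the other TRAV families the index had means of 0.967 ± 0.0244 in the time-matched and 0.449 ± 0.353 in the untreated time-separated mice.

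**Figure D3:**
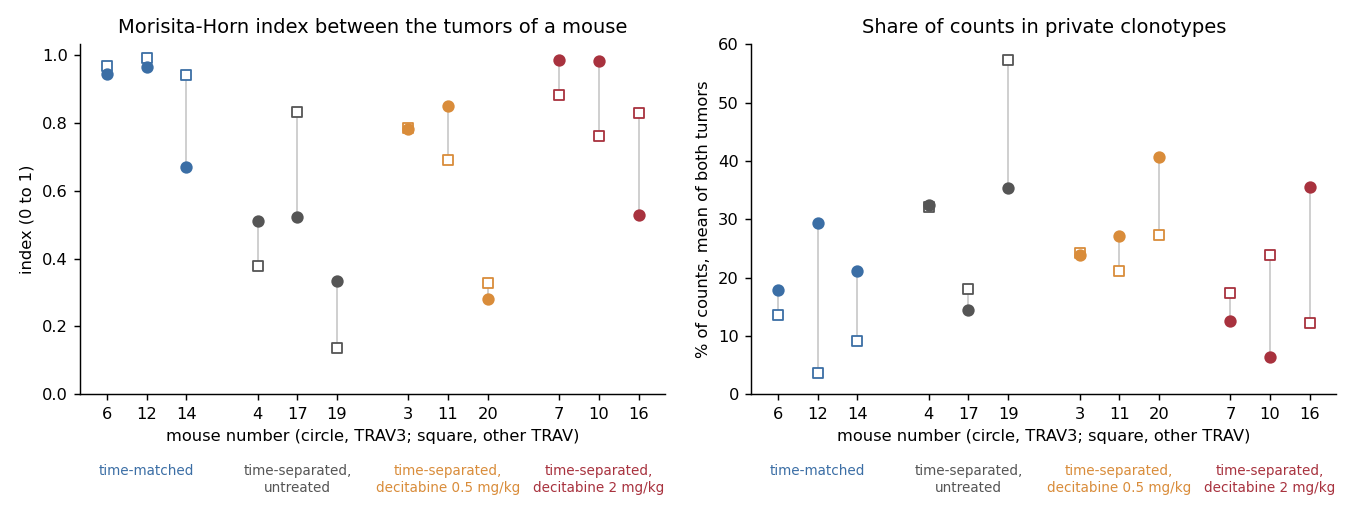
Morisita-Horn index between the tumors of each mouse (left) and percent of counts that were private to 1 of its tumors (right, in thinned libraries), for TRAV3 (circles) and all other TRAV families (squares). The TRAV3 index used all retained counts. The TRAV3 index lies between 0.670 and 0.964 in the time-matched and between 0.334 and 0.524 in the untreated time-separated mice.

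The private share, the part of the TRAV3 counts whose clonotype was missing from the other tumor of the mouse, did not follow the groups. It was 22.8% ± 5.94 (SD, n = 3) in the time-matched mice and 25.4% ± 11.9 (n = 9) in all time-separated mice, a difference of -2.56 points (exact permutation test, p = 0.741). The difference ran from -5.86 (without mouse 12) to -0.117 (without mouse 6) when a mouse was left out, and was -11.1 without the largest TRAV3 clonotype of each mouse. The lowest value was 6.34% in mouse 10 and the highest 40.7% in mouse 20. In the time-matched mice the private share of TRAV3 exceeded that of the other TRAV families in 3 of 3 mice, at 17.9% against 13.5% in mouse 6, 29.4% against 3.59% in mouse 12 and 21.1% against 9.19% in mouse 14, which was not tested. In the time-separated mice it did so in 4 of 9, and lay below in mouse 19 (35.4% against 57.4%) and mouse 10 (6.34% against 23.9%), among others. TRAV3 held far fewer counts than the other families together, with 1.06% and 0.840% of the counts in the tumors of mouse 12. The part of this in its private share was not tested. After thinning, the TRAV3 chains comprised on average over the draws between 56.1 and 112.8 clonotypes in a time-matched tumor and between 35.0 and 212.85 in a time-separated one. The absolute difference in TRAV3 share between the tumors of a mouse was 0.411 ± 0.273 points in the time-matched and 5.51 ± 6.14 points in all time-separated mice (difference -5.10, exact permutation test, p = 0.164). Without mouse 3, the mouse with the largest difference, it was -3.23 (exact permutation test, p = 0.0364), and without the largest TRAV3 clonotype of each mouse it was -2.48 (exact permutation test, p = 0.118). As a ratio, the higher share over the lower ran from 1.08 to 1.26 in the time-matched mice and from 1.11 to 3.10 in the time-separated mice. Mice 4 (1.23), 11 (1.12) and 20 (1.11) lay within the time-matched range and the other time-separated mice above it, which was not tested.

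TRAV3 chains were joined to 43 TRAJ segments. By mean share of the TRAV3 clonotypes of a mouse the most used were TRAJ13 (15.1%), TRAJ15 (9.49%), TRAJ57 (6.15%), TRAJ22 (4.52%) and TRAJ40 (3.55%). The use of the leading segments was uneven between mice: TRAJ13 ran from 0% to 58.7% and TRAJ15 from 0.307% to 50.8% of the TRAV3 clonotypes of a mouse. With near-identical sequences merged, TRAJ13 and TRAJ15 had means of 7.70% and 6.62%, against 2.02% and 3.11% in the other TRAV families. TRAJ15 was higher with TRAV3 in 6 of 12 mice and was not called (exact permutation test, adjusted p = 0.599, and 0.481 with merging). TRAJ13 was not tested because the other families did not use it in all 24 libraries.

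Of the 34 TRAJ segments tested, 2 (5.88%) differed in use between TRAV3 and the other TRAV families, both being used less with TRAV3. TRAJ30 made up 2.19% of TRAV3 clonotypes and 7.72% of the others, and was lower in 12 of 12 mice (two-sided exact sign-flip permutation test over 12 mice, Benjamini-Hochberg adjusted p = 0.0166). TRAJ17 made up 0.757% and 3.17% and was higher in 1 of 12 mice (exact permutation test, adjusted p = 0.0166). With near-identical sequences merged both kept their direction, at 2.77% against 5.14% and 1.17% against 2.42%, and neither was called (exact permutation test, adjusted p = 0.0863). TRAJ57, the 5′ segment among the most used, was higher with TRAV3 in 10 of 12 mice, at 6.15% against 2.43% (exact permutation test, adjusted p = 0.0789). The mean TRAJ number of TRAV3 clonotypes was 30.4 ± 5.05 against 33.4 ± 1.68 in the other families (SD over 12 mice), a difference of -3.03 (exact permutation test, p = 0.0327). It was higher with TRAV3 in 3 of 12 mice and was -1.14 (p = 0.254, exact permutation test) with near-identical sequences merged.

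**Figure D4:**
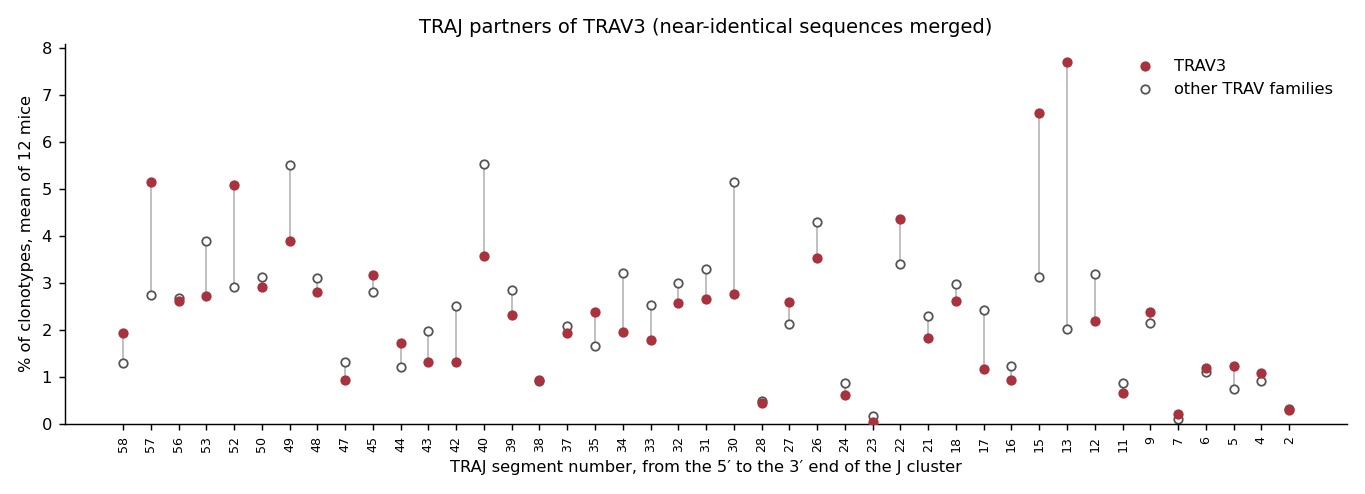
Use of each TRAJ segment by TRAV3 (filled) and by all other TRAV families (open), as the mean over 12 mice of the percent of clonotypes, with near-identical sequences merged. TRAJ13 (7.70% against 2.02%) and TRAJ15 (6.62% against 3.11%) have the highest TRAV3 means, TRAJ13 not being tested and TRAJ15 not called, and TRAJ30 lies below the other families (2.77% against 5.14%).

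The partners of the main segments were counted among merged distinct clonotypes pooled over the mice, with no test. TRAJ13 was used by 113 of the 1056 clonotypes of TRAV3-3 (10.7%) and by 18 of the 604 of TRAV3-1 (2.98%), and TRAJ15 by 6.53% and 3.48%. TRAJ57 was used by 18 clonotypes of TRAV3-3 (1.70%) and 47 of TRAV3-1 (7.78%). TRAJ49 was used by 3.88% and 4.14%. A single mouse can weigh on such pooled counts, since merged TRAJ13 use reached 37.7% of the TRAV3 clonotypes of 1 mouse. The mean TRAJ number was 30.9 with TRAV3-3 and 35.3 with TRAV3-1, which was not tested. Of the 22 clonotypes of TRAV3-4, 7 used TRAJ57.

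The CDR3 of TRAV3 chains was shorter than that of the other families. Its mean length was 13.4 ± 0.331 amino acids against 13.7 ± 0.122 (SD over 12 mice), a difference of -0.31 amino acids, with TRAV3 longer in 1 mouse of 12 (exact permutation test by sign flips, p = 0.00928, where 0.000488 is the smallest that 12 mice allow). The exception was time-matched mouse 14 (13.9 against 13.6), and the largest difference was in mouse 3 (12.5 against 13.7), whose leading clonotype has 12 residues. With near-identical sequences merged the difference was -0.216 (exact permutation test, p = 0.00293). A length of 13 or 14 residues was found in 30.7% and 29.0% of merged TRAV3 clonotypes, and a length of 15 in 11.6%, against 17.7% in the other families.

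**Figure D5:**
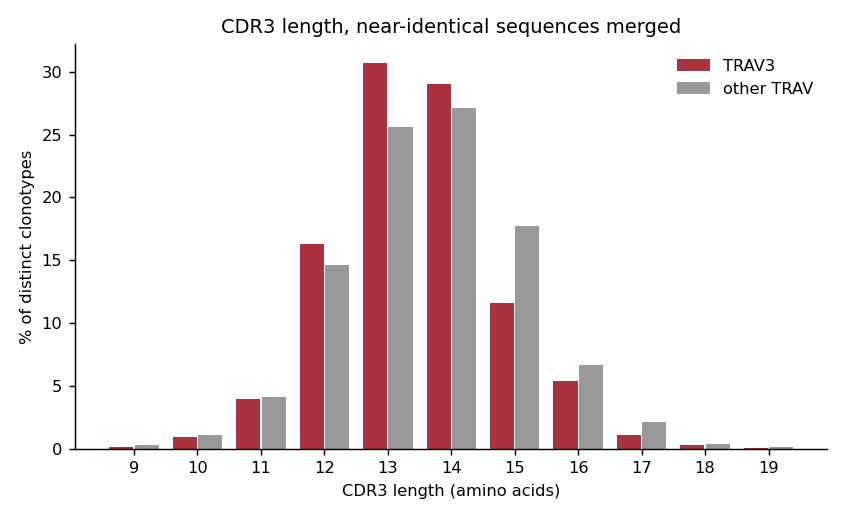
CDR3 length in amino acids of the distinct clonotypes of TRAV3 and of the other TRAV families over all 24 tumors, as a percent of each, with near-identical sequences merged. TRAV3 has more clonotypes of 13 residues (30.7% against 25.6%) and fewer of 15 (11.6% against 17.7%).

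The V gene gave most chains their start. Of the merged clonotypes of TRAV3-3, 84.2% began with the residues CAV and 47.4% with CAVS, and of those of TRAV3-1 87.4% and 49.5%. The next start, CAVR, was found in 12.2% and 15.7%.

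Some TRAV3 clonotypes were found in many mice. Of the 3113 distinct clonotypes, 288 (9.25%) were found in at least 2 mice and 42 (1.35%) in at least 4, against 8.01% and 1.00% of the 31860 clonotypes of the other TRAV families. With near-identical sequences merged these were 172 (10.2%) and 17 (1.01%) of 1682, against 9.02% and 0.999%. The shares were thus close to those of other families, and the difference was not tested. The merged clonotypes found in at least 4 mice had a mean of 0.765 bases between V start and J end, those of 2 or 3 mice 2.72, and those of 1 mouse 6.12.

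The most widespread was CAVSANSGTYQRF, found in 19 tumors of 10 mice, with the same main nucleotide sequence in all 10. Its share ran from 0.00303% (2 counts, mouse 3, tumor 1) to 7.69% (mouse 11, tumor 2), with a median of 0.683% where found, and it passed 0.1% in 9 mice. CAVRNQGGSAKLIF was also found in 10 mice, in 14 tumors, at 0.00969% to 0.498%. The sequence printed for it was its main one in 6 of those mice, and the others led with 1 of these.
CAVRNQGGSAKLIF, form B: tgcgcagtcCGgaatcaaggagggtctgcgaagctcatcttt
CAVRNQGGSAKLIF, form C: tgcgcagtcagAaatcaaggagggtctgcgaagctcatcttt

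Each form was the main one in 2 mice. The same amino acid chain was thus made by different joints. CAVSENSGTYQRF was found in 7 mice, but passed 0.1% only in mouse 10 and in tumor 2 of mouse 20 (1.26%), where its main sequence had another codon 5. With merging it was left in 3 mice. The next most widespread clonotypes, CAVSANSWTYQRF (9 mice) and CAVSANSGTYQRV (8 mice), were 1 base from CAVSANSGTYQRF, by G22T and T37G with positions counted from 1 at the 5′ end of the CDR3. They are shown with the differing base in capitals.
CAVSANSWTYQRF: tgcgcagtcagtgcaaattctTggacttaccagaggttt
CAVSANSGTYQRV: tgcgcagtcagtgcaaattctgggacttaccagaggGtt

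In every tumor where they were found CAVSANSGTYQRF was found too, and they held 0.651% to 3.43% (median 1.43%, 16 tumors) and 0.0956% to 0.926% (median 0.199%, 9 tumors) of its counts. The same CDR3 as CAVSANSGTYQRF was also listed under TRAV3-1, with 140 counts in 8 tumors of 6 mice, against 36540 counts under TRAV3-3. Among the chains named for their difference between tumors, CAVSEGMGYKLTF (TRAV3-3 with TRAJ9) came up in both mouse 17 (0.0752% and 1.85%) and mouse 20 (0 and 1.27%), with the same main sequence.
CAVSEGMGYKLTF: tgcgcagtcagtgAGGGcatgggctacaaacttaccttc

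The TRAV3-3 chains with TRAJ13 had a common form, CAVSxNSGTYQRF, in which the residue x, at position 5, is encoded at the joint. The form was chosen after its values were seen and is a description. Chains of this form held 157876 counts, 40.5% of all TRAV3 counts and 93.2% of those of TRAV3-3 with TRAJ13, and 12 residues were found at x. Mouse 14 differed: TRAV3-3 with TRAJ13 held 10.4% and 27.3% of the TRAV3 counts of its tumors, but the form only 0.0185% and 0.459%. Mouse 10 gave 119276 of the 157876 counts, and without mouse 10 the form held 38600 of 245881 TRAV3 counts (15.7%). The mean of its share of TRAV3 over the 12 mice was 21.8%. The 5 forms with the most counts had glutamate, alanine, valine, serine and proline there, and are printed with codon 5 in capitals.
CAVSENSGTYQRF: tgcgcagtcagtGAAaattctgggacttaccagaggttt
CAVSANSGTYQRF: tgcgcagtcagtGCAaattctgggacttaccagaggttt
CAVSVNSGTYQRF: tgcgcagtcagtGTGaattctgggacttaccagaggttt
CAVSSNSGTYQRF: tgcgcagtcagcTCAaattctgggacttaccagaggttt
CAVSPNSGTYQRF: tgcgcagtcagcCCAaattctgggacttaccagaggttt

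They held 84854, 36540, 19490, 11970 and 4648 counts. Without mouse 10 the order was alanine (32861), proline (4645), glutamate (948) and valine (72). With merging, the forms with aspartate, lysine, methionine, arginine and threonine at x were no longer found, and those with glycine and leucine were left in 1 tumor each. The form was found in 20 of 24 tumors and in 10 of 12 mice. It was not read in mice 7 and 16, both given 2 mg/kg, where the limit of 0 counts was 0.00135% and 0.0113% in tumors 1 and 2 of mouse 7 and 0.00139% and 0.00222% in those of mouse 16. In mouse 10, given the same dose, it held 20.6% and 31.9% of all TCRα counts. Per mouse it held 0.280% ± 0.283 of the counts in the time-matched mice, 1.77% ± 1.91 in the untreated time-separated mice, 3.11% ± 2.97 at 0.5 mg/kg and 8.75% ± 15.2 at 2 mg/kg (SD, n = 3 each). All 3 time-matched mice lay below the 3 mice at 0.5 mg/kg, but closely, at 0.574% in mouse 6 against 0.650% in mouse 3. This was not tested, and the TRAV families apart in that pair of groups were not counted. The other pairs of groups overlapped. Without it the TRAV3 share of the time-matched mice was below that of the untreated time-separated mice, at a difference of -6.58 points (exact permutation test, p = 0.1), and the difference from all 9 time-separated mice was -5.58 points (exact permutation test, p = 0.1) in place of -9.54. Without it the difference of the Morisita-Horn index from all 9 time-separated mice was 0.422 (exact permutation test, p = 0.0636) and that of the private share -9.30 points (exact permutation test, p = 0.482).

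The family was also compared between the tumors numbered 1 and 2. TRAV3-3 had the higher share in tumor 2 in 9 of 12 mice, but without the form CAVSxNSGTYQRF it was higher in tumor 1 in 8 of 12. The form CAVSxNSGTYQRF had the higher share in tumor 2 in 9 of the 10 mice that held it, time-matched mouse 12 being the exception. TRAV3-1 had the higher share in tumor 1 in 11 of 12 mice, and its chains with TRAJ57 in 12 of 12. TRAV3-1 without TRAJ57 was higher in tumor 1 in 11 mice, TRAJ57 in the other TRAV families in 11 and TRAJ57 with TRAV3-3 in 9. Tumors 1 and 2 of mouse 17 had 3.27% and 0.579% of their counts in those chains, mouse 7 had 2.56% and 1.32%, mouse 10 had 1.22% and 0.0583%, and mouse 4 had 0.963% and 0.352%. In the time-matched mice they held 0.144% and 0.0800% (mouse 6), 0.0339% and 0.000236% (mouse 12) and 0.122% and 0.0809% (mouse 14). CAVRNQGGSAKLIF was higher in tumor 1 in all 10 mice that held it. Of the 103 pairs of a V gene and a TRAJ found in every mouse, 2 (1.94%) were higher in tumor 1 in all 12 mice and 0 were higher in tumor 2 in all 12, and the median pair was higher in tumor 1 in 9 mice. Tumor 1 also had the deeper library in 9 of 12 mice. What the tumor numbers stand for is not in the labels, the pattern was chosen after its values were seen, and the part of depth in it was not tested.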

How the data were processed

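RNA of 24 whole CT26.CL25 tumors gave 24 TCRα libraries that carried unique molecular identifiers. The authors pre-processed reads, analysed identifiers and called clonotypes with the Cogent NGS Immune Profiler and deposited, per sequence, a count with no normalization or filter. The methods and the count column give the unit as reads, whether reads of one identifier were collapsed is not said, and the genome build is not given in them. The TCRβ tables were not used.

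Sequences under 2 counts, and those marked for a stop or a frame shift, were left out. Clonotypes shared CDR3 amino acids, V gene and J gene. Libraries were thinned to 26623 counts (20 draws, seed 20) for the TRAV3 share of clonotypes and the private share. The TRAV3 Morisita-Horn index, TRAJ use and CDR3 length used all retained counts, with thinning as an alternative. Groups of mice were compared by two-sided exact permutation tests of 1 value per mouse, and TRAV3 with the other families by exact sign-flip tests over 12 mice, with Benjamini-Hochberg adjustment over 17 families or 34 TRAJ segments. Where they applied, alternatives changed the count minimum (1 or 10), the stop mark, the clonotype definition, the depth, the largest clonotype, the tumor and the mice. The clonotype definition was not changed for shares of counts. Single tumors were not run for the Morisita-Horn index or the absolute difference between tumors. An alternative chosen after seeing the data merged each sequence into one that differed by 1 base and had at least 20 times its counts, another left out a common TRAV3-3 form, and another left mouse 10 out of the counts of that form. The members and lists were chosen with earlier results of these data known. Named clonotypes were the largest TRAV3 clonotype of each mouse, the 5 found in most mice, and, among the 5 largest of either tumor, the one with the largest ratio between tumors, with 1 count added. The limit of a share of 0 was 3 counts of the library, which is approximate because sequences under 2 counts had been left out. The tests were tested on simulated data. The tools were pandas 2.3.3, numpy 2.4.6 and scipy 1.17.1 under Python 3.11.15, with figures from matplotlib 3.10.9.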

Additional observations from a re-analysis of the deposited data

Results flagged for a closer look

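Tumor 2 of mouse 3 (0.5 mg/kg decitabine) lay far from the other tumors of its group. Its TRAV3 share of counts was 30.2%, the next of the 6 tumors being at 10.6%, and its TRAV3 share of clonotypes was 16.8%, the next being at 10.2%. The absolute difference in TRAV3 share between the tumors of mouse 3 was 20.5 points, against 8.78 points in the next of the 9 time-separated mice. The clonotype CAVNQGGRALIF held 83.7% of the TRAV3 counts of that tumor. In all, 12 sets of values were looked at in this way, and chance alone sets apart about 1 in 20.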

How the results depend on the processing

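Of 251 alternative values of 15 results, 223 kept their direction and their side of the threshold, for counts stayed within 1.5 times, or, for the untested form CAVSxNSGTYQRF without mouse 10, moved by less than the SD between mice. In comparisons of 3 mice against 3 the smallest p is 0.1, so that their side of the threshold was fixed and only their direction could change. The difference in share of counts between decitabine and untreated mice changed sign at 0.5 mg/kg without the largest clonotype (-2.81 points), in tumor 1 alone (-1.09) and without mouse 3 (-1.97), and at 2 mg/kg without the largest clonotype (-1.10) and without mouse 10 (-5.36). The private share, time-matched minus all time-separated, became +3.00 in tumor 2 alone. Against all 9 time-separated mice, the share of counts passed the threshold with stop-marked sequences kept (-9.76, exact permutation test, p = 0.0364), the share of clonotypes with these kept (-4.37, p = 0.0182, exact) and in tumor 1 alone (-3.29, p = 0.0409, exact). The called TRAJ segments numbered 4 at a minimum of 1 count, 0 at 10, 7 with stop-marked sequences kept and 0 with near-identical sequences merged. The mean TRAJ number lost its call at a minimum of 10 counts (-1.78), with stop-marked sequences kept (-2.52), in tumor 1 alone (-1.33) and with merging (-1.14). The cause was not tested. Leaving out each mouse moved the share of counts against all 9 from -10.8 (without mouse 16, exact p = 0.0424) to -7.18 (without mouse 10, exact p = 0.0485), the share of clonotypes from -4.37 (without mouse 16, exact p = 0.0303) to -3.11, the differences at 0.5 mg/kg from -1.97 to 3.53 and at 2 mg/kg from -5.36 to 9.21, the absolute difference between tumors from -5.67 to -3.23, the called TRAJ segments from 2 to 4 (without mouse 16) and the mean TRAJ number from -3.53 to -2.28, with its call lost without mouse 3, 4, 10, 11, 17 or 20 (highest exact p = 0.0654). Pooling segments of one number changed nothing, since TRAV3D-3 had no retained sequence. CDR3 length with stop-marked sequences kept was not run. No paired analysis between groups was possible because no mouse number is shared between them, and the tumors of a mouse were averaged or compared within it. Depth limits what can be said of chains read in 1 tumor alone, most of all in tumor 2 of mouse 7.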
